A study of Mus musculus with 3 samples.

Results

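The C/EBP (CCAAT/enhancer-binding protein) genes of bone marrow CD133+ cells were described along the neutrophil series of these cells and across the 3 single-cell libraries of the study. The members were the 6 listed genes *Cebpa*, *Cebpb*, *Cebpd*, *Cebpe*, *Cebpg* and *Cebpz*. Of these, 5 were matched by symbol and identifier among the 27998 genes of the count tables, and *Cebpd* was not analysed here. The order of their peaks was read over 8 bands of cells, set by the UMI counts (unique transcript molecules) of *Mpo*, *Retnlg* and *Mmp8*, none of which is a member.

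The cells were sorted by FACS for CD133 from the bone marrow of C57BL/6 mice, with the cells of 3 mice pooled into each library, and were sequenced with droplet 3′ kits (10x Genomics, v2 chemistry). The young and the control library were both labelled as 3 months old and the old library as 27 months old, while the design text of the series gives 18.5 months for the old mice and names the tissue intestinal. No label says how the control library differs from the young one; according to the methods, a first library served to characterise the CD133+ cells, and the comparison of ages came from the others. All 3 libraries came from the same strain and from sorts for the same marker, and no treatment or altered allele was labelled.

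There was 1 library per group, so no test between groups was possible and every interval below is a 95% interval for counting error alone (exact Poisson for levels, exact conditional binomial for ratios, exact binomial for shares). Libraries, mice, sorting days and runs cannot be told apart. The tables held 10869 control, 8362 young and 10597 old barcodes with 108985799, 81434722 and 138030352 UMIs, and 9780, 7378 and 9681 cells passed the filters. The libraries shared 120 to 161 barcode sequences in each pair. The study called the CD133+ cells endothelial-like. It drew on genetic lineage tracing of transplanted marrow cells, pseudo-time, uptake assays, Matrigel plugs and cell transfer. After transfer of CD133+ cells it reported endothelial cells with the donor label in injured muscle. It reported that a cluster of public marrow data, taken to be these cells, barely expressed endothelial markers such as VE-cadherin. For VEGFR2, encoded by *Kdr*, it reported high expression in the CD133+ cells, and *Kdr* is among the 8 markers summed next. In the cells placed in bands, 8 endothelial markers summed to 2.85, 2.56 and 3.70 UMIs per 1000000 UMIs (CPM, the unit of all levels below) in control, young and old cells. *Tek* was at 0 UMIs in all 3 libraries and *Cdh5* at 0 in the old one. Over all cells that passed the filters the sums were 3.13, 6.57 and 4.17. In the cells placed in bands, 5 granule genes of neutrophil precursors (*Camp*, *Ltf*, *Lcn2*, *Ngp*, *Chil3*) summed to 133740, 147523 and 126941 CPM. The cells are therefore described by their bands, not as an endothelial type. Other features of whole libraries touch the results: 12.6% of the young cells, against 1.37% of control and 1.20% of old cells, were set aside because 3 or more marker genes of a different blood lineage were detected in them, and 8 interferon-induced genes summed to 1042 CPM in the young library against 55.7 and 50.3 in the control and old libraries.

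C/EBP proteins are basic leucine zipper (bZIP) factors: a basic region contacts DNA and a zipper pairs the protein with a partner of the family. In blood, C/EBPα is needed for progenitors to become granulocyte precursors and restrains their division, C/EBPε drives the genes of the secondary granules, and C/EBPβ is known for granulocyte output under stress and for monocytes and macrophages. C/EBPγ lacks a strong activation domain of its own and pairs with other bZIP proteins such as ATF4, the factor of the amino acid response. C/EBPζ shares the family's name but is a nucleolar protein of ribosome assembly and not a bZIP factor.

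The sequences of the DNA-contacting stretch show what the bZIP members have in common. The 27 coding bases below were read 5′ to 3′ on the coding strand from the GRCm38 genome with GENCODE M21 models, and capitals mark the 20 bases that are identical in the 4 bZIP members.
Cebpa: AACAAcATcGCGGTGcgcAAgAGCCGa
Cebpb: AACAAcATcGCGGTGcgcAAgAGCCGc
Cebpe: AACAAcATcGCGGTGcgcAAgAGCCGg
Cebpg: AACAAtATgGCGGTGaaaAAaAGCCGg
The *Cebpa* stretch lies at chr7:35120295-35120321 on the plus strand and the *Cebpb* stretch at chr2:167689715-167689741 on the plus strand, each in the single exon of its gene. The *Cebpe* stretch lies at chr14:54710719-54710745 and the *Cebpg* stretch at chr7:35050597-35050623, both on the minus strand in exon 2 of 2. *Cebpa*, *Cebpb* and *Cebpe* matched each other at 26 of 27 bases, whereas *Cebpg* matched *Cebpa* and *Cebpb* at 20 and *Cebpe* at 21. No such stretch was found in *Cebpz*. The gene bodies lie at chr7:35119293-35121928 (*Cebpa*, plus strand), chr2:167688915-167690418 (*Cebpb*, plus), chr14:54710360-54712174 (*Cebpe*, minus), chr7:35046422-35056573 (*Cebpg*, minus) and chr17:78919006-78937066 (*Cebpz*, minus). *Cebpg* overlaps the gene models *Gm44836* and *Gm45094* on its own strand, so its reads could have been shared with them.

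The bands follow 2 axes per cell. Bands 1 to 5 held cells with *Mpo*, the azurophil granule peroxidase of promyelocytes, at 100 or more, 30 to 100, 10 to 30, 3 to 10 and under 3 UMIs per 10000, all with *Retnlg* plus *Mmp8*, transcripts of maturing neutrophils, under 3. Bands 6 to 8 held cells with *Mpo* under 10 and *Retnlg* plus *Mmp8* at 3 to 10, 10 to 30 and 30 or more. From band 1 to band 8 the control library held 256, 1259, 717, 2833, 1792, 1936, 235 and 272 cells, and the young library held 246, 351, 161, 584, 527, 2824, 328 and 336 cells. The old library held 393, 219, 330, 296, 4050, 1354 and 1329 cells in bands 2 to 8 and only 36 cells in band 1, fewer than the 50 required for a level. Cells with *Mpo* at 10 or more and *Retnlg* plus *Mmp8* at 3 or more were left out of the bands, and they made up 3.54% of control, 14.8% of young and 16.1% of old cells. Between 30.5% and 72.8% of the cells of a band lay within 25% of an edge, so the bands are ranges of a gradient and not types. Genes that the bands did not use moved along the same axis, with *Elane* at 28236 CPM in band 1 and 1440 in band 5 of the control library and *Ltf* at 543 and 7440 in the same bands.

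*Cebpa* was highest in the cells with the most *Mpo*. From band 1 to band 8 its level was 49.0, 36.1, 12.9, 5.03, 4.66, 4.32, 7.73 and 4.60 CPM in the control library. In the young library it was 52.8, 26.6, 12.8, 7.55, 6.74, 5.35, 5.48 and 4.66. In the old library bands 2 to 8 gave 21.2, 8.22, 3.61, 1.34, 2.66, 3.77 and 5.28. Every library thus had its highest level in its first band, and the levels of bands 1 and 2 stood apart from those of bands 4 to 8 in each library by their intervals. Band 1 over band 5 was 3.39 on the log2 scale (2.99 to 3.81) in control and 2.97 (2.44 to 3.54) in young cells. The 36 old cells of band 1 held 20 *Cebpa* UMIs, a level of 45.0 (27.5 to 69.5). With the limit for *Retnlg* plus *Mmp8* in bands 1 to 4 raised to 10, a setting chosen after the data were seen, the old library had 89 cells in band 1 and *Cebpa* was at 42.3 (31.2 to 56.1). The cells left out for holding both axes had *Cebpa* at 36.4, 31.8 and 15.5 CPM in control, young and old, within the range of bands 1 to 3.

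The levels of *Cebpa* in the later bands were of the size found in cells with B-lineage or NK/T markers. After each cell was thinned to 3000 UMIs, 12.9% of control and 14.2% of young band 1 cells had a *Cebpa* UMI, and 11.0%, 7.12% and 7.12% of band 2 cells in control, young and old. In band 3 it was 3.77%, 3.73% and 1.37%, and in bands 4 to 8 between 0.338% and 1.83%. Of the 128 young cells with B-lineage markers (median 8609.5 UMIs) 1.56% had one (0.190% to 5.53%), and of the 71 with NK or T cell markers (median 9100 UMIs) 1.41% (0.0357% to 7.60%). Median depth in band 1 was 11820.5 and 12298.5 UMIs in control and young cells, and without thinning 38.3% and 44.7% of them had a *Cebpa* UMI. In level these marker cells were at 9.80 CPM (5.06 to 17.1) and 2.89 CPM (0.351 to 10.5), and bands 1 and 2 of each library lay above both intervals. Bands 3 to 8 overlapped at least one of them, so *Cebpa* there could not be told apart from this background. The background rests on 2 and 1 cells with a UMI in the young library, and control and old had too few such cells for their own. It is not free of myeloid transcripts: these B-lineage- and NK/T-marker cells held *Mpo* at 1598 and 1146 CPM. Bands 4 to 8 of the young library held it at 181 to 517 CPM. Low *Mpo* is part of the definition of these bands, whereas the marker cells were not chosen by *Mpo*. The contrast in *Mpo* therefore does not show how much myeloid transcript the marker cells hold relative to these bands. The NK/T marker list was itself high in the early series. Its 7 genes in the count tables summed to 2656 CPM in band 1 and 168 in band 7 of young cells. Whether the *Cebpa* UMIs of the marker cells come from neutrophil precursors was not tested.

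*Cebpz* was also highest at the start of the series. Its level was 60.9, 61.1, 38.3, 27.2, 25.6, 25.4, 23.9 and 34.9 CPM from band 1 to band 8 of the control library and 44.0, 39.0, 26.0, 24.3, 18.0, 19.7, 25.1 and 19.6 in the young library. The old library gave 43.1, 24.0, 23.7, 21.7, 19.7, 17.3 and 12.7 from band 2 to band 8. Bands 1 and 2 could not be told apart in control or young cells. Band 1 over band 5 was 1.25 (0.99 to 1.51) and 1.29 (0.90 to 1.69) on the log2 scale. At the late end band 5 over band 8 was -0.45 in control, -0.12 in young and 0.77 in old cells on the log2 scale, a difference that could not be tested with 1 library each. As UMIs per cell it was 0.33, 0.54 and 1.46, the same direction in all 3 libraries.

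*Cebpe*, the granule gene factor, had a broad plateau in the middle bands. Control cells gave 577, 745, 989, 1056, 1079.7, 1017, 784 and 560.3 CPM from band 1 to band 8. Young cells gave 715, 944, 1179, 1189.6, 1219, 1181, 976 and 769. Old cells gave 799.9, 1053, 1038, 1048, 1017, 839 and 447 in bands 2 to 8. The highest band was band 5 in control and young and band 3 in old cells, but the interval of the highest band overlapped band 4 in control, bands 3, 4 and 6 in young and bands 4, 5 and 6 in old cells. Both ends of the series were lower in each library: band 1 over band 5 was -0.90 and -0.77 in control and young, and band 5 over band 8 was 0.95, 0.66 and 1.23 in control, young and old, all on the log2 scale. *Cebpe* UMIs were also found in cells set aside for markers of other lineages, which may hold transcripts of the series. After thinning, 92.9% to 96.6% of band 5 cells had a *Cebpe* UMI, as did 53.1% of the young B-lineage-marker cells and 50.7% of the NK/T-marker cells, so a *Cebpe* UMI on its own does not mark a cell of the series.

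*Cebpb* had 2 high points with a low point between them. From band 1 to band 8 its level was 391, 399, 429, 332, 312, 284, 212 and 573 CPM in control cells and 311, 377, 375, 255, 248, 249.9, 183 and 324 in young cells. Old cells gave 505, 509, 428, 369, 377, 279 and 399 from band 2 to band 8. In all 3 libraries band 7 was the lowest and band 8 was higher than band 7 with intervals that did not overlap. The highest band was 8 in control, 2 in young and 3 in old cells, so which high point was the higher differed among libraries, and the mean over libraries placed the peak in band 3 (438) with band 8 (432) next to it. Band 8 over band 5 was largest in control cells, where band 5 over band 8 was -0.88 on the log2 scale, against -0.38 in young and -0.11 in old cells. As UMIs per cell it was -0.10, 0.28 and 0.58, so band 8 was the lower of these bands in young and old cells on that scale.

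*Cebpg* varied least of the members. Its level stayed between 24.2 and 31.1 CPM in control, 16.3 and 27.3 in young and 15.6 and 23.1 in old cells. The highest band was 1, 2 and 8 in the 3 libraries, and its interval overlapped those of most other bands in each library, so no peak of *Cebpg* was resolved at this depth. The mean over libraries was highest in band 1 (28.9), 1.45 times the lowest band.

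**Figure D1:**
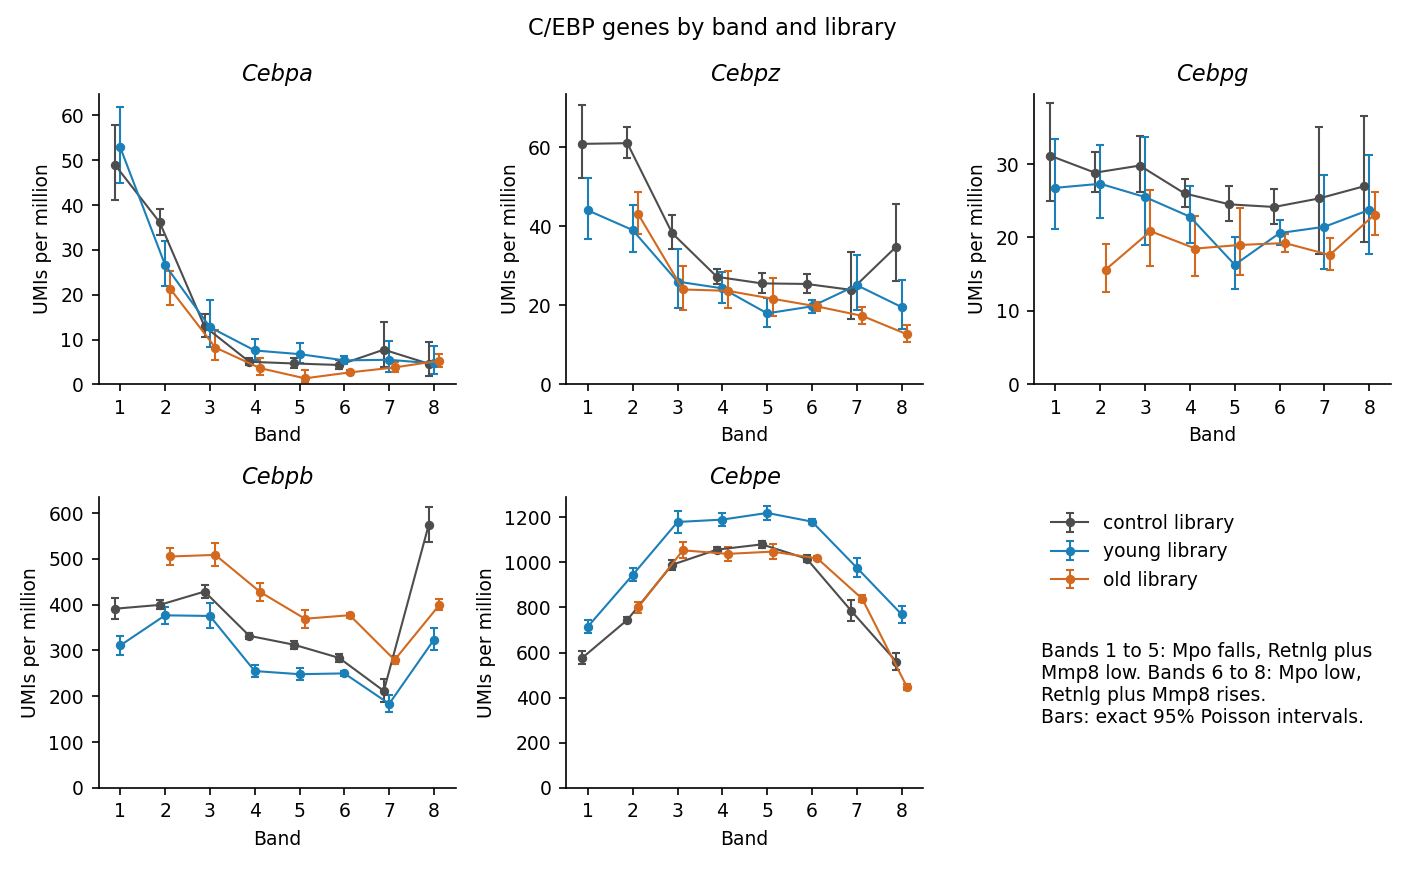
Level of each C/EBP gene (vertical axis, CPM, a separate scale for each gene) in bands 1 to 8 (horizontal axis) of the control, young and old libraries; bars are exact 95% Poisson intervals. *Cebpa* and *Cebpz* start high, *Cebpe* is highest in the middle, *Cebpb* has a low point in band 7 and *Cebpg* is nearly level; the old library has no band 1 point because only 36 cells fell there.

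By the mean of the libraries the order of peaks was *Cebpa*, *Cebpz* and *Cebpg* in band 1, *Cebpb* in band 3 and *Cebpe* in band 5. The mean band number weighted by level, a measure that uses all bands, was 2.50 for *Cebpa*, 3.75 for *Cebpz*, 4.35 for *Cebpg*, 4.35 for *Cebpb* and 4.49 for *Cebpe*. The highest band exceeded the lowest 12.4 times for *Cebpa*, a ratio that may be too small because its lowest band could not be told apart from background, 2.43 times for *Cebpz*, 1.95 times for *Cebpb*, 1.88 times for *Cebpe* and 1.45 times for *Cebpg*. Band 1 means lack the old library, so ratios and shares that use them mix unlike sets of libraries. Within the control and young libraries the *Cebpa* ratio was 11.4 and 11.3. In all 3 libraries the highest bands of *Cebpa* and *Cebpz* came before those of *Cebpe*, also when every band that overlapped the highest one was counted; no other order held in this way. The *Cebpa* mean in band 5 was 8.34% of its highest mean, and the *Cebpe* mean in band 1 was 57.9% of its own.

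**Figure D2:**
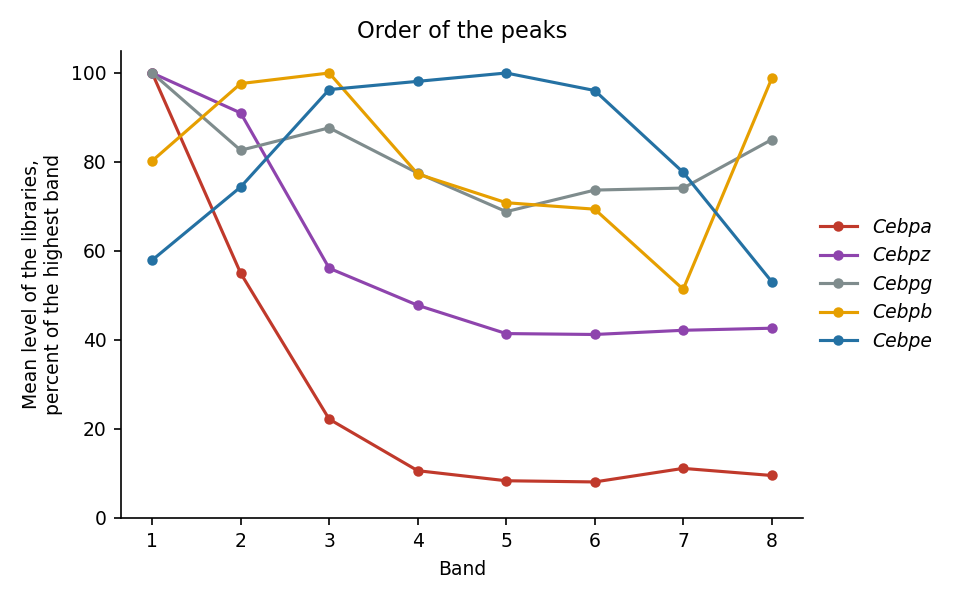
Mean level over libraries of each C/EBP gene as a percent of its highest band (vertical axis) over bands 1 to 8 (horizontal axis); band 1 is the mean of the control and young libraries and the other bands of all 3. *Cebpa* is down to 22.2% by band 3, where *Cebpe* stands at 96.3% and *Cebpb* at 100%.

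These shares depend on what the rest of the cell holds, since granule transcripts fill the later bands. The 20 most abundant genes took 15.5% and 15.2% of the UMIs in band 1 of control and young cells and 58.1%, 56.3% and 52.0% in band 7 of control, young and old cells. The median of all genes tested was accordingly 0.69 higher on the log2 scale in band 1 than in band 5 in both libraries, 1.02 and 0.95 higher in band 1 than in band 8, and 0.25, 0.20 and 0.36 higher in band 5 than in band 8. Relative to these medians *Cebpa* was higher and *Cebpe* lower in band 1 than in band 5. Among genes at 10 or more CPM in either band, 48.6% were at least 1.5 times higher in band 1 than in band 5 in both libraries and 8.74% as much lower, and of the members *Cebpa* and *Cebpz* were among the first and *Cebpe* among the second. From band 5 to band 8, 18.8% were higher in band 5 in all 3 libraries, *Cebpe* among them, and 8.46% lower, with no member. From band 1 to band 8, 56.9% were higher in band 1, *Cebpa* and *Cebpz* among them, and 13% lower, with no member. With the 20 most abundant genes left out of the totals, band 1 over band 5 stayed at 2.56 and 2.12 for *Cebpa* and 0.42 and 0.44 for *Cebpz*, and became -1.74 and -1.62 for *Cebpe* on the log2 scale. On the same scaling *Cebpb*, at 0.32 and 0.33 before, turned to -0.51 and -0.53, and *Cebpg*, at 0.35 and 0.72 before, to -0.49 and -0.14, so neither has a direction between these bands that holds under both scalings. From band 1 to band 8 the same scaling gave *Cebpz* as -0.08 in control and 0.31 in young cells, so it was no longer higher by 1.5 times, and gave -1.44 and -0.92 for *Cebpb*, -0.84 and -0.97 for *Cebpe* and -0.68 and -0.69 for *Cebpg*, all lower by more than 1.5 times in band 1. *Cebpa* stayed at 2.53 and 2.64. The share of all genes past 1.5-fold was not counted on this scaling. As UMIs per cell the direction was the reverse. Band 1 over band 8 was then 0.45 and 0.85 for *Cebpb*, 1.04 and 0.80 for *Cebpe* and 1.21 and 1.08 for *Cebpg* in control and young cells. The median of all genes was 2.02 and 1.86 on that scale. *Cebpb*, *Cebpe* and *Cebpg* thus have no direction between bands 1 and 8 that holds under both scalings.

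Detection of *Cebpe* did not separate the early cells with *Cebpa* from those without it. In thinned band 1 cells, 75.8% of the 33 control cells with a *Cebpa* UMI also had a *Cebpe* UMI, against 77.6% of the cells without one. The shares were 91.4% of 35 and 84.8% in young cells. In band 2 they were 81.3% of 139 and 86.8% in control, 96.0% of 25 and 92.0% in young, and 85.7% of 28 and 90.7% in old cells. The intervals of each pair overlapped, so no difference was detectable at this depth. In the young set-aside groups the share with a *Cebpe* UMI ran from 27.3% (erythroid markers) to 93.5% (macrophage markers), with 53.1% for B-lineage markers. The shares of early cells with both UMIs therefore do not show how many cells express both genes.

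**Figure D3:**
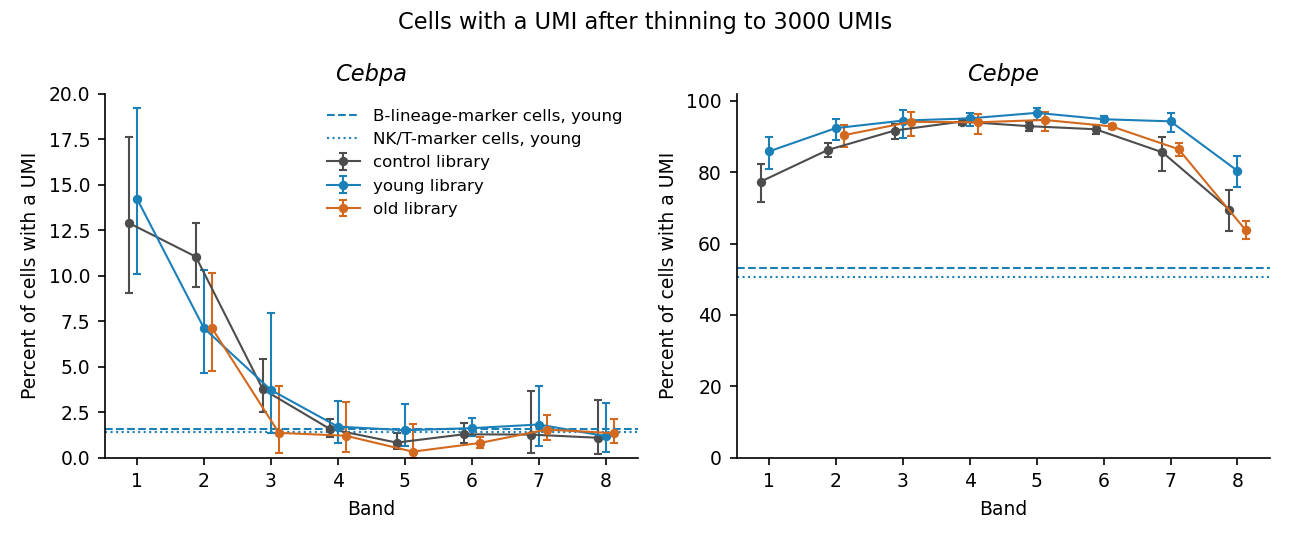
Percent of cells with a *Cebpa* UMI and with a *Cebpe* UMI (vertical axes) in bands 1 to 8 (horizontal axis) of the 3 libraries after thinning each cell to 3000 UMIs, with exact 95% binomial intervals; the dashed and dotted lines are the young B-lineage-marker and NK/T-marker cells. *Cebpa* lies near these lines from band 4 on, while *Cebpe* stays above its lines, at 53.1% and 50.7%, in every band.

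Genes known as targets of the C/EBP factors were spread over the whole series. Of 5 genes linked to C/EBPα, the protease genes *Elane*, *Prtn3* and *Ctsg* were highest in the first band with a level in all 3 libraries, as was *Cebpa*. *Csf3r*, the G-CSF receptor, and *Il6ra*, a receptor chain for interleukin 6, were instead highest in band 8 in all 3, with *Csf3r* at 84.2, 84.3 and 89.5 CPM there and 59.1, 55.9 and 54.0 in the first band of control, young and old cells. The protease genes belong to the azurophil granules, as does *Mpo*, which sets the bands. Of 8 genes linked to C/EBPε, *Camp*, *Ngp* and *Chil3* were highest in band 5 in every library, *Ltf*, *Lcn2* and *Cybb* in band 7, *Itgb2l* in band 7 in control and young and band 8 in old cells, and *Padi4*, the histone-modifying enzyme of mature neutrophils, in band 8. The peak of each was thus at or after the *Cebpe* plateau. As a group they summed to 18558 CPM in band 1 and 175427 in band 5 of the control library, and to 14351 and 177227 in young cells.

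The promoters of some of these genes hold the letters of a C/EBP site. In RefSeq promoters (GRCm38.p6, 250 bases before to 50 after each start), the motif TTGCNNAA on either strand was present in 10.8% of 32851 promoters and in 12.2% of 27025 genes. It was found in 3 of the 8 genes linked to C/EBPε, in 0 of the 5 linked to C/EBPα, and of the other lists in *Slc7a11* and *Fbxw7*. The windows below show these matches for the granule genes, 30 bases each read on the gene's strand with the motif in capitals.
Ltf: aggcaggcctaTTGGGCAAtagggtggggc
Lcn2: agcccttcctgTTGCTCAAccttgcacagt
Ngp: gtcctggtttaTTGCCCAAacctccttgcc
Ngp, nearer the start: accggcagttcTTGGGCAAggcagtctcaa
They lie at chr9:111019206-111019235 for *Ltf* (plus strand, motif 75 bases before the start), chr2:32387937-32387966 for *Lcn2* (minus strand, 216 bases before) and chr9:110419659-110419688 for *Ngp* (plus strand, 138 bases before, with the other match 11 bases before the start). In the *Ltf* window and in the *Ngp* window nearer the start, the motif reads on the other strand. All of these are matches of letters, which say nothing of binding. None of the 3 member promoters in the table (*Cebpa*, *Cebpb*, *Cebpg*) held the motif in this window, and their GC content was 67.3%, 80.7% and 71.7% against a median of 52.7% over all promoters. The composite motif TGATGNAA, in which a C/EBP and an ATF part meet and whose letters can overlap the first motif, was in 3.97% of promoters and 4.51% of genes. It was found in 3 of 7 genes of the amino acid response, in which C/EBPγ and ATF4 are known to act, with a second match in *Slc7a11*, and also in *Ctsg* (1 of 5 genes linked to C/EBPα) and *Trib3* (1 of 3 turnover genes with a promoter in the table).
Asns: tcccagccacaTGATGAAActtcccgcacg
Slc7a11: tctcatgtggcTGATGCAAacctggagaat
Chac1: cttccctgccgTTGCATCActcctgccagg
These windows lie at chr6:7693214-7693243 (minus strand), chr3:50443661-50443690 (minus strand) and chr2:119351038-119351067 (plus strand, where the motif reads on the other strand).

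Genes of other bZIP factors and of the amino acid response differed in the band where they were highest. *Atf4* was highest in band 2 of control and old cells (98.6 and 79.0 CPM) and in band 1 of young cells (47.1). *Ddit3*, which encodes the stress-induced relative CHOP, was highest in band 8 in all 3 libraries, at 15.8, 17.7 and 11.4, and *Nfil3*, a bZIP repressor, in band 7, at 30.9, 24.7 and 28.0. *Dbp*, *Tef* and *Hlf*, the PAR bZIP genes, were under 5 CPM in every band. Of the amino acid response genes *Phgdh*, *Psat1*, *Shmt2* and *Slc3a2* were highest in the first band with a level, *Phgdh* with 142 in band 1 and 7.28 in band 5 of control cells. *Slc7a11*, the cystine transporter, was instead highest in band 8 in all 3, at 13.8, 20.5 and 11.3. *Asns*, asparagine synthetase, had its highest values in bands 3 to 5 and stood apart by library, at 94.2 CPM over the banded old cells against 27.9 in young and 37.5 in control cells.

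Of the genes that set the turnover of C/EBP proteins, *Trib1*, which brings C/EBPα to the ubiquitin ligase COP1, had a late course opposite to that of *Cebpa*. Its level was 1.75, 1.01, 1.23, 3.71, 5.01, 7.13, 21.8 and 27.0 CPM over the bands of control cells, and reached 29.8 and 11.2 in band 8 of young and old cells from 0.339 and 0.849 in their first bands. *Rfwd2*, the gene of COP1, was highest in band 8 in all 3 libraries, at 38.1, 27.5 and 24.9. *Trib2* and *Trib3* were under 2 CPM throughout, and *Fbxw7*, a ligase adaptor for C/EBP proteins, under 8. Band 8 was also where immediate early genes were highest: *Junb*, *Fos*, *Dusp1* and *Zfp36*, which respond to acute stimulation and to handling of cells, had their highest level there in all 3 libraries, and 9 such genes summed to 466, 437 and 537 CPM in band 8 against 194, 203 and 237 in band 5. Whether these genes and the band 8 level of *Cebpb* are related was not tested.

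Genes of ribosome assembly were, like *Cebpz*, higher in band 1 than in band 5. So were 48.6% of all genes tested by at least 1.5 times in both libraries, *Cebpz* among them. The 8 nucleolar genes listed as its partners summed to 2451 CPM in band 1 and 245 in band 8 of control cells, to 1649 and 201 in young cells, and to 1344 in band 2 and 110.2 in band 8 of old cells. *Ncl*, nucleolin, was at 777 and 503 in band 1 of control and young cells and at 103 and 96.0 in band 5. *Npm1*, nucleophosmin, was at 1070.2 and 756 in band 1 and at 139 and 114 in band 5. The course of *Cebpz* was flatter than that of these genes, with band 1 over band 5 at 2.38-fold in control and 2.45-fold in young cells.

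The closest courses over all 23 points (bands and libraries) were looked for among 5303 genes with a mean of at least 10 CPM, by Pearson's r of log2 levels. The points share libraries and the cells share depth, so r also takes in differences between libraries and is a description without a p. *Sub1* (0.98), *Acot7*, *Uqcc3*, *Il21r* and *Cdc26* were closest to *Cebpa*, and *Rab26os* (0.96), *Ybx3*, *Mbd3*, *Srm* and *Set* to *Cebpz*. *Trim59* (0.96), *Cenpl*, *Kif11*, *Kifc1* and *Cenpf* were closest to *Cebpe*, of which *Kif11*, *Kifc1* and *Cenpf* encode proteins of the mitotic spindle and kinetochore. For *Cebpb* the highest r was lower, 0.83 with *Azin1*, followed by *St3gal4*, *Atp6v1a*, *Map2k3* and *Prkar1a*, and for *Cebpg* it was 0.77 with *Atp11b*, followed by *Kpna4*, *Gm12166*, *Abhd2* and *Ddx3y*. Between members r was 0.81 for *Cebpa* and *Cebpz*, 0.55 for *Cebpg* and *Cebpz* and -0.31 for *Cebpa* and *Cebpe*.

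Cells with transcripts of mitosis differed from cells without them within a band. Cells thinned to 3000 UMIs with at least 3 of 8 mitosis markers were set beside cells with none, in the 8 pairs of band and library with enough of both. These were bands 2, 4, 5 and 6 of control, bands 4, 5 and 6 of young and band 6 of old cells. Before thinning the cells with the markers were the deeper in each pair, with medians of 10272 against 7600 UMIs in band 4 of control. Whether they differ in more than mitosis was not tested. The comparison was made for the members only, so no share of all genes stands beside the counts below. *Cebpb* was higher in the cells with the markers in 8 of 8, with the interval above 0 in 7 and a median difference of 0.75 on the log2 scale (0.13 to 1.67). *Cebpe* was higher in 8 of 8, with the interval above 0 in 7, by a median of 0.32 (0.09 to 0.41). *Cebpg* was higher in 5 of 8 and *Cebpz* in 3 of 8, with every interval spanning 0. *Cebpa* had UMIs on both sides in 6 of the 8 pairs and was higher in 4 of these 6, with every interval spanning 0. In the other two pairs, band 5 of control and young, all *Cebpa* UMIs (8 and 3) were in the cells with the markers.

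Over all banded cells *Cebpa* differed most among the libraries. It was at 12.3 (11.6 to 13.1) CPM in control, 10.4 (9.55 to 11.3) in young and 4.63 (4.21 to 5.08) in old cells. Old over young was -1.17 (-1.35 to -0.98) on the log2 scale, a level 2.25 times lower. Old over control was -1.41 (-1.57 to -1.25), 2.66 times lower. Cells on both axes, left out here, held 350 *Cebpa* UMIs in old and 112 in control cells, beside 443 and 1129 in the bands. With the limit of *Retnlg* plus *Mmp8* raised to 10, chosen after the data were seen, old over young was -1.11 and old over control -0.97. Control over young was 0.24, and -0.14 with that limit. The old library also had the smallest share of cells in bands 1 and 2, where *Cebpa* was highest, at 0.450% and 4.91% of its banded cells against 2.75% and 13.5% in control and 4.59% and 6.55% in young. These shares depend on which cells on both axes were left out. With the limit raised to 10, band 2 held 1135 old, 1376 control and 825 young cells, and band 1 held 89, 281 and 512. At the limit of 3, with every shared band given equal weight, the *Cebpa* difference was smaller, at -0.59 on the log2 scale for old over young and -0.71 for old over control. Within bands, *Cebpa* was lower in old than in young cells in 6 of 7 bands, with the interval below 0 in 3. These were bands 4, 5 and 6, where the level could not be told apart from that of the B-lineage- and NK/T-marker cells. That background held *Mpo* transcripts itself. In band 2, where *Cebpa* stood above the background, old over young was -0.33 (-0.70 to 0.05), so a difference was not resolved there. With the limit of *Retnlg* plus *Mmp8* raised to 10 it was -0.28 (-0.75 to 0.17) in band 1, -0.41 (-0.64 to -0.19) in band 2 and -1.17 (-1.61 to -0.71) in band 3, where young cells were at 15.6 and old cells at 6.97 CPM. Old over control in band 2 was -0.77 (-1.06 to -0.49).

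*Cebpb* was higher in old cells at the same point of the series. Over all banded cells it was at 344 (340 to 348) CPM in control, 269 (265 to 274) in young and 379 (375 to 383) in old cells. Old over young was 0.49 (0.47 to 0.52) on the log2 scale and 0.30 to 0.75 within bands, with all 7 bands higher and all 7 intervals above 0. Old over control was higher in 6 of 7 bands, while band 8 went the other way, at -0.52 (-0.63 to -0.41). Control was also higher than young in 8 of 8 bands, by 0.08 to 0.83. Control and young carry the same labelled age. Their difference was 0.35 over all banded cells, smaller than that of old over young, and larger than it only in band 8 of the 7 shared bands.

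Per UMI, *Cebpe* was lower in old than in young cells in 7 of 7 bands, by -0.78 to -0.16 on the log2 scale, and lower in control than in young cells in 8 of 8, by -0.46 to -0.17. As UMIs per cell, with the old library the deepest, the first of these turned in 6 of 7 bands, with band 6 at 13.3 UMIs per cell in old and 11.7 in young cells and only band 8 lower in old, and old over young was -0.016 over all banded cells. Its level over all banded cells was 966 (959.95 to 973) in control, 1115 (1106 to 1124) in young and 916 (909.7 to 922) in old cells. Old and control did not order the same way across bands, with 4 bands higher and 3 lower. *Cebpg* was at 26.4, 21.7 and 19.3 CPM in control, young and old cells. Per UMI it was lower in old than in control cells in 7 of 7 bands with 5 intervals below 0. As UMIs per cell it was higher in old than in control cells in bands 5 to 8, with band 6 at 0.252 against 0.208. *Cebpz* was at 34.5, 23.5 and 20.7, with old 1.67 times lower than control (-0.74 on the log2 scale). With bands weighted equally this was -0.54, as UMIs per cell -0.46 and centred on the median of all genes -0.58, each under 1.5-fold. Counted per cell, *Cebpz* was higher in old than in control cells in bands 4 to 7, with band 6 at 0.258 against 0.219 UMIs. Per UMI it was lower in old than in control cells in 7 of 7 bands and higher in control than in young cells in 7 of 8. The nucleolar genes differed in the same directions over all banded cells. In old against control 7 of 7 tested were at least 1.5 times lower, beside 15.9% of all genes. In control against young 7 of 7 were as much higher, beside 5.84%. The medians were -1.45 and 0.90 on the log2 scale. In old against young 1 of 5 was lower. These values take in the unlike shares of bands. Within bands the 8 listed genes summed to 2267, 1096 and 1344 CPM in band 2 of control, young and old cells. In band 5 the sums were 335, 272 and 269, and in band 8 they were 245, 201 and 110.

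**Figure D4:**
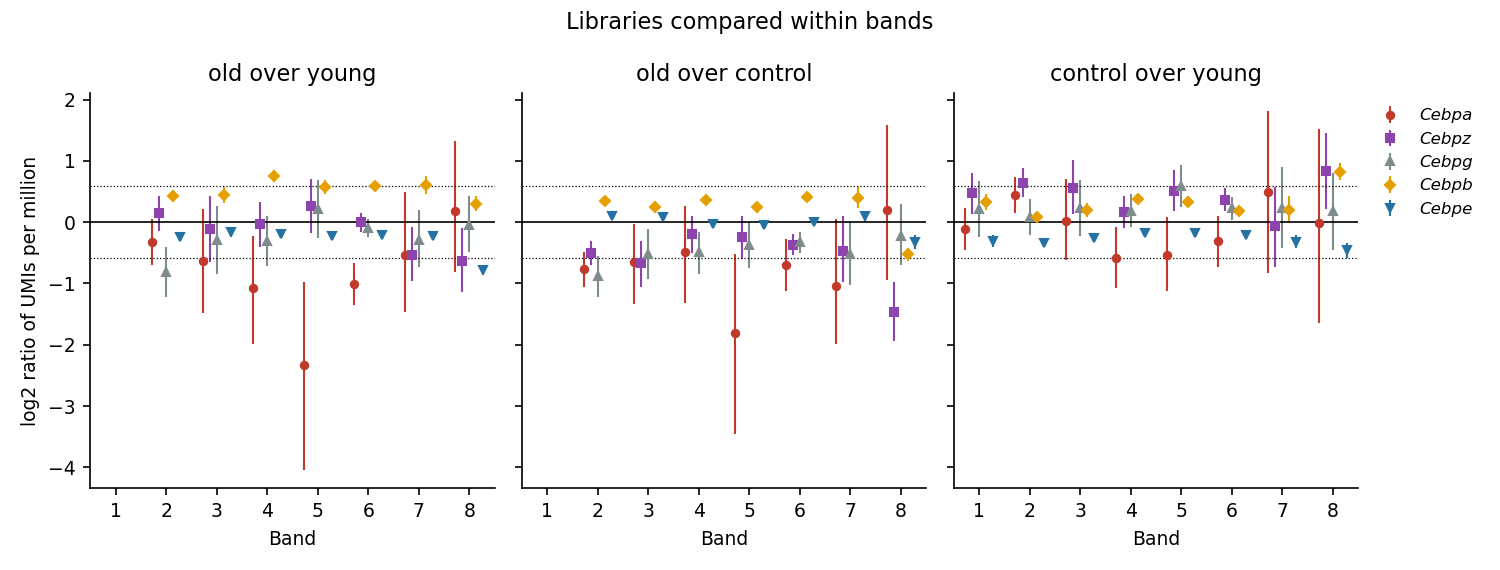
Log2 ratio of the level between libraries (vertical axis) within bands 1 to 8 (horizontal axis) for each C/EBP gene, for old over young, old over control and control over young; bars are exact conditional binomial 95% intervals the solid line marks no difference and the dotted lines a 1.5-fold difference. *Cebpb* old over young lies above the line in 7 of 7 bands and *Cebpe* below it in 7 of 7, and both genes also depart from the line in control over young.

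The members past 1.5-fold over all banded cells are given beside the share of all genes past it. Of the 5416 genes tested in old against young cells, 5.28% were at least 1.5 times higher and 10.5% lower in old, and of the 5 members none was higher and *Cebpa* was lower. In old against control cells 6.07% were higher and 15.9% lower, with no member higher and *Cebpa* and *Cebpz* lower. In control against young cells, 5.84% of 5480 genes were higher and 3.38% lower, with no member in either direction. Among the genes related to them, *Atf4* was higher in control than in young cells. *Asns* was higher in old cells in both comparisons, while *Psat1*, *Phgdh* and *Shmt2* of the same list were lower in old than in control and higher in control than in young cells. Of the genes linked to C/EBPα, *Elane* was lower in old cells in both comparisons, *Prtn3* and *Ctsg* were lower in old than in control, and *Prtn3* was higher in control than in young cells. All calls of this paragraph are over all banded cells, and the libraries differed in their shares of bands 1 and 2. Within bands the *Elane* difference was smaller between old and young cells. It was at 17982 and 22161 CPM in band 2, 2701 and 2343 in band 4 and 772 and 1033 in band 8. Of the immediate early genes *Jun* and *Junb* were higher in old than in young cells and *Jun*, *Junb* and *Zfp36* higher in old than in control cells. Of the genes linked to C/EBPε, *Camp* was lower in old than in young and *Padi4* higher in old than in control cells. The 8 interferon-induced genes were lower in both the old and the control library than in the young one in 8 of 8. Whether this response, the depth (median 9614.5, 9881 and 12143 UMIs per banded cell in control, young and old) or the immediate early genes have a part in the differences of *Cebpb* and *Cebpe* was not tested.

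The cells set aside for markers of other lineages had C/EBP levels of their own. Cells with monocyte markers (48 control, 473 young, 70 old) had *Cebpb* at 1259, 865 and 855 CPM, which was 2.19 (1.97 to 2.45), 2.30 (2.17 to 2.44) and 1.68 (1.53 to 1.84) times the highest band of the same library. *Cebpg* was at 78.8, 69.4 and 61.4 in them, 2.53, 2.54 and 2.65 times the highest band. *Cebpe* was at 278, 279 and 258, and even the lowest band of each library was 2.01, 2.57 and 1.74 times higher. *Cebpa* was at 37.1, 42.1 and 27.3, of the size found in bands 1 and 2. The 61 young cells with basophil or mast cell markers had *Cebpa* at 113 (88.4 to 141), above every band, with *Cebpe* at 829.6. The 128 young cells with B-lineage markers had *Cebpa* at 9.80, *Cebpb* at 136, *Cebpe* at 376, *Cebpg* at 49.0 and *Cebpz* at 55.5, and the 71 with NK/T markers had *Cebpa* at 2.89, *Cebpb* at 137 and *Cebpe* at 485. The 22 young cells with erythroid markers had *Cebpb* at 62.7 and *Cebpe* at 195. No doublets were called, and a set-aside barcode may hold more than 1 cell: the 77 young and 30 control cells with macrophage markers had *Cebpe* at 1088 and 1039.9, levels of the middle bands, and the azurophil genes *Mpo*, *Elane*, *Prtn3* and *Ctsg* summed to 9149 and 10772 CPM in them. In the monocyte-marker cells the same 4 genes summed to 13411, 9241 and 8886.

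**Figure D5:**
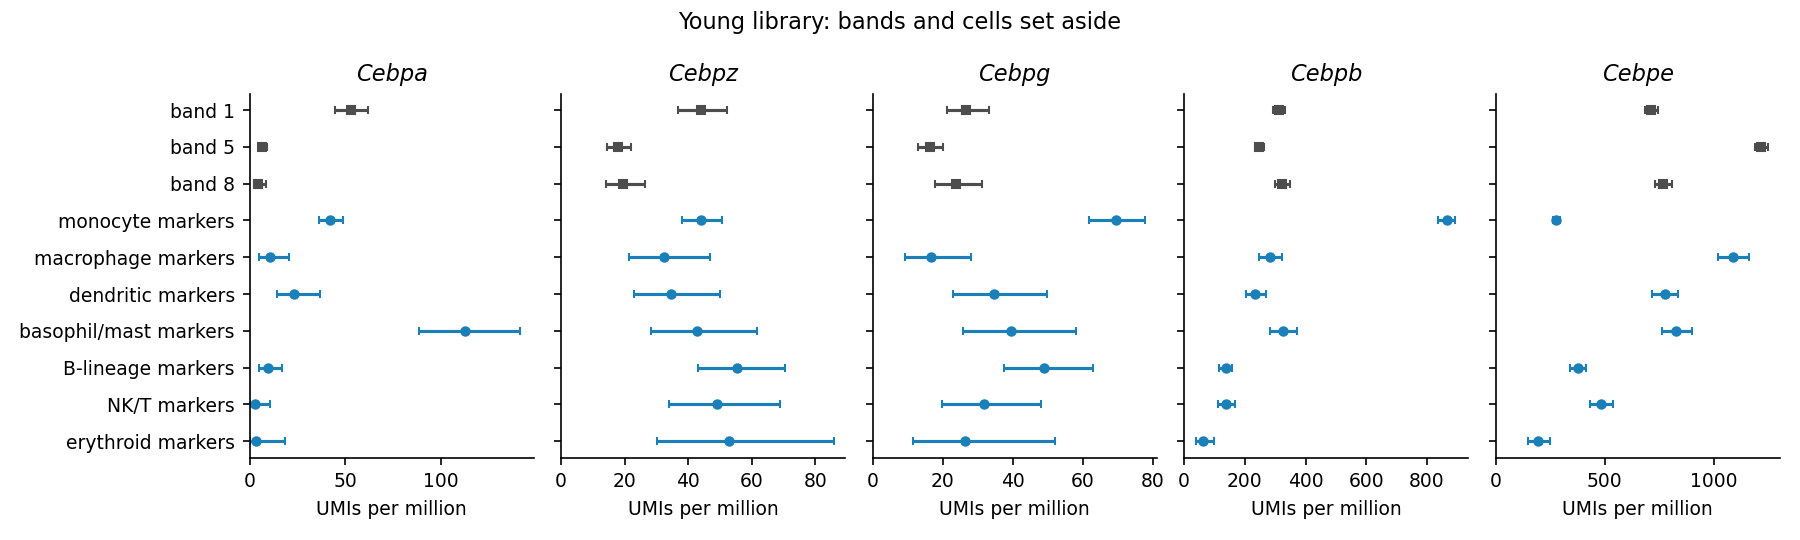
Level of each C/EBP gene (horizontal axis, CPM) in the young library, in bands 1, 5 and 8 (grey squares) and in the set-aside groups of at least 20 cells, named by their markers (blue circles), with exact 95% Poisson intervals. *Cebpb* (865) and *Cebpg* (69.4) are highest in the monocyte-marker cells and *Cebpa* (113) in the basophil/mast-marker cells, and *Cebpe* is lower in the monocyte-marker cells (279) than in the bands.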

How the data were processed

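The deposited matrices hold raw UMI counts per gene and cell, which the authors made with STAR and Cell Ranger 2.1.0 on mm10, per the submitters' processing notes. Cells with at least 200 genes, at most 20% mitochondrial UMIs and UMIs within the 5th to 95th percentile were kept (limits set in control alone and in young and old together). Cells with UMIs of at least 3 markers of 1 of 10 other-lineage lists were set aside. Levels are summed UMIs per 1000000 (CPM) over the cells of a band. Genes at 10 or more CPM in either arm were counted past 1.5-fold. Of the 27998 identifiers 27645 matched GENCODE M21. Python 3.11.15, numpy 2.4.6 and scipy 1.17.1 were used, and the counting steps were tested on simulated data. Named genes are the members, the listed genes and the 5 closest to each member. The members and lists were chosen with earlier results of these data known. Alternatives covered the band edges and markers, the cell filters, the scaling, thinning, the weighting and the limits of size.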

Additional observations from a re-analysis of the deposited data

Results flagged for a closer look

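*Cebpz* at the late end of the series differed between libraries in direction per UMI. Band 5 over band 8 was -0.45 (-0.86 to -0.0079) on the log2 scale in control and -0.12 in young cells, where band 8 was the higher, and 0.77 in old cells, where it was the lower. In CPM band 5 and band 8 were at 25.6 and 34.9 in control, 18.0 and 19.6 in young and 21.7 and 12.7 in old cells. The difference was not tested, since each age had 1 library, and in young cells the ratio is within counting error. As UMIs per cell the ratio was 0.33, 0.54 and 1.46, with band 8 the lower in all 3 libraries.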

How the results depend on the processing

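Of 70 recomputed peaks 49 stayed in their band and 21 moved. The *Cebpa* peak moved to band 2 with doubled band edges. The *Cebpb* peak moved to band 8 without UMI trimming, with doubled edges, with *Retnlg* alone, without the 20 most abundant genes, as a mean over cells, after thinning, with cells on both axes kept and with the limit raised to 10 (chosen after the data were seen), and to band 2 with halved edges, with *Prtn3* plus *Ctsg* for *Mpo* and as UMIs per cell. The *Cebpe* peak moved to band 3 with *Prtn3* plus *Ctsg* and as UMIs per cell. The *Cebpg* peak moved to band 4 with halved edges, 2 with doubled edges and with *Prtn3* plus *Ctsg*, and 8 without the 20 genes. The *Cebpz* peak moved to band 2 with doubled edges, as UMIs per cell and with the libraries summed. Between libraries 52 of 66 counts of members stayed and 14 moved: 1 member higher in old than in young (*Cebpb*) as UMIs per cell and after centring; 0 lower (*Cebpa* lost) with equal bands, thinning, a minimum of 50 CPM, and equal bands with the limit of 10; and in old against control 1 lower with equal bands, UMIs per cell, centring, thinning, a 2-fold limit and the limit of 10, and 0 with the minimum of 50 and with equal bands and the limit of 10. Under thinning *Cebpa* stayed at -0.85 and -1.01 on the log2 scale against young and control and dropped out for its level under 10 CPM, as it did with equal bands against young (-0.59, from 9.88 and 6.59 CPM), and at the minimum of 50 it could not be counted. With equal bands and the limit of 10 it was -0.51 and -0.56. In old against control *Cebpz* was the member lost with equal bands, UMIs per cell, centring, 2-fold and the limit of 10. Between bands 30 of 38 stayed: band 1 over 5 had 1 higher without the 20 genes and 0 lower as UMIs per cell and at 2-fold; band 5 over 8 had 0 higher at 2-fold; band 1 over 8 had 4 higher as UMIs per cell, 1 without the 20 genes and at 2-fold, and 3 lower without the 20 genes. The 4 members higher in band 1 than in band 8 as UMIs per cell were *Cebpa*, *Cebpe*, *Cebpg* and *Cebpz*. The 3 lower without the 20 genes were *Cebpb*, *Cebpe* and *Cebpg*. Of 135 log2 values 65 stayed within their counting interval, 70 moved beyond it and 0 changed sign against a called value. A change of sign was counted only for members past 1.5-fold, and signs did change among the others. *Cebpa* control over young went from 0.24 to -0.019 with no cells set aside. As UMIs per cell, *Cebpe* old over control went from -0.078 to 0.20. On that scale *Cebpg* and *Cebpz* old over young went from -0.17 and -0.19 to 0.097 and 0.082. Doubled edges left no library with 50 cells in both bands of the band 1 comparisons, so these have no value.

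With 1 library per group, counting intervals do not cover the spread between mice. No paired analysis was possible because each group has 1 library. Depth limits *Cebpa*, *Cebpg* and *Cebpz*, for which a band holds as few as 5, 36 and 34 UMIs.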
